A study of Rattus norvegicus with 12 samples.

Results

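The 10 genes described here encode proteins that fuse mitochondria (Mfn1, Mfn2, Opa1), divide them (Dnm1l, Fis1, Mff, Mief1, Mief2) or fold their inner membrane into cristae (Immt, Chchd3). They were taken by gene name from a table of 30560 genes, and all 10 names were found, each in 1 row. The libraries came from wild-type male Wistar Kyoto rats killed at 9 weeks of age, from the inner red portion of the gastrocnemius, a calf muscle. Mitochondria were pulled down by immunoprecipitation from fresh tissue of 6 animals, then purified with RNase A and proteinase K, which digest RNA and protein. Snap-frozen whole muscle of the same 6 animals formed the other group and had no such enzyme step. Total RNA was depleted of ribosomal RNA and sequenced, from 10 ng of RNA for mitochondria and 50 ng for whole muscle. The study asked which RNAs are found in purified muscle mitochondria.

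Mitochondria in muscle fibres form a network that is remodelled by large GTPases. Mitofusins join the outer membranes of neighbouring mitochondria, and OPA1 joins the inner membranes and helps hold cristae closed. DRP1, the product of Dnm1l, is recruited from the cytosol by adaptors in the outer membrane and constricts the organelle. The MICOS complex forms the junctions where cristae meet the inner boundary membrane. All of these proteins are encoded in the nucleus and made on cytosolic ribosomes, so the counts below are of nuclear genes.

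The mitochondria libraries held 720111 to 1785865 counts and the muscle libraries 24309444 to 32055355. Despite the lower depth, 27803 to 28708 genes had a count in mitochondria libraries, against 16931 to 17776 in muscle libraries. Genes of the mitochondrial genome took 12.9% to 51.5% of the counts in mitochondria libraries and 26.4% to 35.9% in muscle libraries, with means of 33.0% ± 14.8 and 32.1% ± 4.30 (SD, n = 6 each). The label of the isolated fraction was thus not matched by a higher share of these counts in every animal. Against muscle of the same animal, the share was higher in replicates 4 to 6 and lower in replicates 1 to 3. It was 51.5% against 35.9% in replicate 4, and 12.9% against 35.5% in replicate 3. Skeletal muscle markers were abundant in whole muscle, where titin (Ttn) had 75898 ± 15226 CPM, against 1742 ± 679 CPM in mitochondria (CPM, counts scaled to 1000000 in a library). The 9 muscle markers in the table summed to 1386 to 3488 CPM in mitochondria libraries and 153310 to 217682 CPM in muscle libraries. Of the other cell types, 6 leukocyte markers summed to 249 to 424 CPM in mitochondria and 28.7 to 54.2 in muscle, and 4 adipocyte markers to 64.4 to 131 and 0.130 to 3.91. The 5 Schwann cell markers summed to 84.0 to 166 CPM in mitochondria and 17.5 to 107 in muscle, and the 6 endothelial markers to 261 to 472 and 365 to 592. The 5 fibroblast markers summed to 239 to 367 CPM in mitochondria and 1717 to 5379 in muscle, and the 5 smooth muscle markers to 181 to 321 and 354 to 476. No marker was at 0 in either group, and the part of these cell types in the results was not tested. Higher CPM in mitochondria was common. Of all 24679 genes tested, 79.5% had every mitochondria library above every muscle library, and 6.77% had every one below. Of 10014 nuclear genes without a count in any muscle library, 93.4% had a count in mitochondria, at a median of 3.73 CPM and a 95th percentile of 23.6 CPM.

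In isolated mitochondria, 9 of the 10 genes took a smaller part of the library than in whole muscle, and the adaptor gene Mief1 took a larger part. Of the 9, the cristae gene Chchd3 differed most, with 23.7 ± 6.28 CPM in mitochondria and 291 ± 21.2 CPM in muscle. As a ratio of means, the inner membrane fusion gene Opa1 differed least, with 45.4 ± 11.4 CPM in mitochondria and 86.9 ± 8.24 CPM in muscle (SD, n = 6 each). Summed over the 10 genes, the libraries held 245 to 422 CPM in mitochondria and 1240 to 1329 CPM in muscle. Mean CPM in mitochondria ran from 19.9 (Fis1) to 55.1 (Mfn2), against a 95th percentile of 23.6 for nuclear genes without a muscle count. Neither is corrected for transcript length. All 6 mitochondria libraries lay below all 6 muscle libraries for these 9 genes, as they did for 6.77% of all genes tested, and above them for Mief1, as for 79.5% of all genes tested.

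The genes were tested with edgeR's quasi-likelihood test over 24679 genes, with TMM scaling, which takes library factors from a weighted, trimmed mean of log ratios to a reference library. All 10 genes passed the filter on low counts and fell with TMM, at adjusted p-values of at most 4.97e-12, against 30.3% of all genes called lower and 63% called higher. Scaled by total counts, 9 fell and Mief1 rose, against 9.03% of all genes called lower and 84.3% called higher. Scaled by the counts of the mitochondrial genome, 7 fell, Mief1 rose, and Opa1 and Fis1 did not pass, against 4.4% called lower and 80.7% called higher of 24316 genes tested. The median log2 fold change (mitochondria over whole muscle) of the 10 genes was -3.86 with TMM, -1.77 with total counts and -1.43 with mitochondrial genome counts, whereas the median of all genes tested was 2.51, 4.61 and 4.81. Total counts thus shift the median of all genes by 2.10 on the log2 scale relative to TMM, and each of the 10 genes lay below the median of all genes under all 3 scalings. Less RNA per mitochondrion and fewer mitochondria or attached material in a preparation cannot be told apart in bulk samples, and the same holds for the cells of whole muscle.

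**Figure D1:**
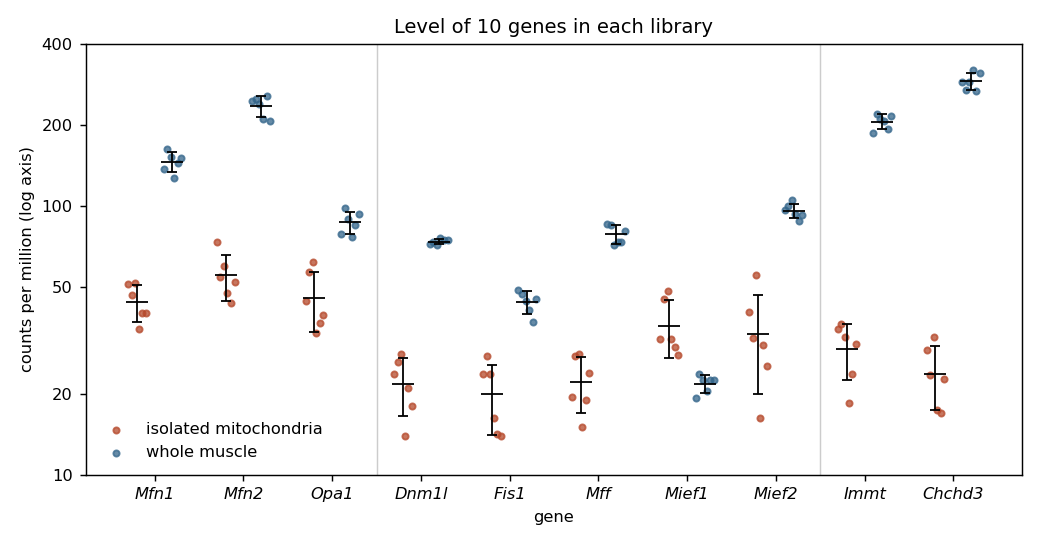
CPM (log axis) of the 10 genes in each of the 6 mitochondria libraries and 6 whole muscle libraries; points are libraries, and bars are mean and SD. Mitochondria libraries lie below muscle libraries for 9 genes and above them for Mief1.

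Of the fusion genes, Mfn2, whose product joins outer membranes and also tethers mitochondria to the endoplasmic reticulum, had 43.4 to 73.6 CPM in mitochondria libraries with a median of 53.2, against 207 to 256 CPM in muscle libraries with a median of 243. The groups were far apart, and replicate 1 was the highest of the mitochondria libraries. The log2 fold change of Mfn2 was -4.21 ± 0.13 with TMM (SE, edgeR adjusted p = 3.01e-23) and -2.11 ± 0.17 with total counts (edgeR adjusted p = 1.82e-19). Mfn1, the other mitofusin, had 34.7 to 51.8 CPM in mitochondria with a median of 43.3, against 127 to 163 CPM in muscle with a median of 148. Mfn1 thus fell in all 6 animals, by 1.42 to 1.92 on the log2 CPM scale, and its log2 fold change was -3.85 ± 0.12 with TMM (edgeR adjusted p = 3.08e-23) and -1.75 ± 0.17 with total counts (edgeR adjusted p = 7.80e-16).

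Opa1, the GTPase of inner membrane fusion, had 33.6 to 61.9 CPM in mitochondria libraries with a median of 41.8, against 76.9 to 97.9 CPM in muscle libraries with a median of 87.4. The highest mitochondria library, replicate 3, came within 15.0 CPM of the lowest muscle library, the narrowest such gap among the fusion genes. Opa1 had a log2 fold change of -3.06 ± 0.12 with TMM (SE, edgeR adjusted p = 7.19e-21) and -0.96 ± 0.17 with total counts (edgeR adjusted p = 4.52e-07). Scaled by mitochondrial genome counts it was -0.58 ± 0.50 and did not pass (edgeR adjusted p = 0.266).

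Of the fission genes, Dnm1l, the gene of the constricting GTPase, had 14.0 to 28.1 CPM in mitochondria libraries with a median of 22.3, against 71.4 to 76.0 CPM in muscle libraries with a median of 73.7. Its coefficient of variation in total-count CPM was 24.2% in mitochondria and 2.25% in muscle, the lowest of the 10 genes there. In nuclear CPM, scaled by nuclear counts alone, it was 9.98% in mitochondria and 7.02% in muscle, where Mfn2 was lowest at 6.13%. Dnm1l fell, with a log2 fold change of -3.88 ± 0.11 with TMM (SE, edgeR adjusted p = 1.42e-23) and -1.79 ± 0.18 with total counts (edgeR adjusted p = 9.28e-15). Mff, an outer membrane adaptor that recruits DRP1, had 15.1 to 28.1 CPM in mitochondria with a median of 21.7, against 71.6 to 85.5 CPM in muscle with a median of 77.3. Mff was at -3.92 ± 0.12 with TMM (edgeR adjusted p = 1.11e-22) and -1.83 ± 0.18 with total counts (edgeR adjusted p = 2.90e-15), values within 1 SE of those of Dnm1l.

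Fis1, a small outer membrane protein with a part in fission, had 14.0 to 27.6 CPM in mitochondria libraries with a median of 19.9, against 36.9 to 48.8 CPM in muscle libraries with a median of 44.8. The groups did not overlap, but the highest mitochondria library lay 9.30 CPM below the lowest muscle library. For Fis1 the log2 fold change was -3.27 ± 0.13 with TMM (SE, edgeR adjusted p = 2.27e-20), -1.18 ± 0.19 with total counts (edgeR adjusted p = 3.99e-08) and -0.85 ± 0.52 relative to mitochondrial genome counts, where it did not pass (edgeR adjusted p = 0.114).

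Mief1 and Mief2 encode homologous adaptors that bind DRP1 on the outer membrane, also known as the mitochondrial dynamics proteins. Mief2 had 16.2 to 55.2 CPM in mitochondria libraries with a median of 31.4, against 87.8 to 105 CPM in muscle libraries with a median of 94.8. It was the most variable of the 10 genes in mitochondria, with a coefficient of variation of 40.1% in total-count CPM and 20.5% in nuclear CPM. Replicate 4, which had the largest share of mitochondrial genome counts (51.5%), was lowest, and replicate 3, which had the smallest (12.9%), was highest. The same replicates were lowest and highest in total-count CPM for Mfn1, Opa1, Dnm1l, Mff and the sum of the 10 genes. In nuclear CPM, of these only Mief2 kept both extremes, at 33.5 in replicate 4 and 63.4 in replicate 3. Mfn1 was then highest in replicate 4 (71.5) and lowest in replicate 3 (59.5). The sum was lowest in replicate 1 (467) and highest in replicate 2 (530). The log2 fold change of Mief2 was -3.71 ± 0.12 with TMM (SE, edgeR adjusted p = 3.74e-22) and -1.59 ± 0.19 with total counts (edgeR adjusted p = 2.03e-12).

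Mief1 had 27.9 to 48.4 CPM in mitochondria libraries with a median of 31.9, against 19.3 to 23.7 CPM in muscle libraries with a median of 22.5. The mitochondria libraries were higher in all 6 animals, by 0.31 to 1.11 on the log2 CPM scale. The direction of its fold change depended on the scaling, at -1.39 ± 0.12 with TMM (SE, edgeR adjusted p = 4.97e-12), 0.70 ± 0.18 with total counts (edgeR adjusted p = 0.000191) and 1.04 ± 0.51 with mitochondrial genome counts (edgeR adjusted p = 0.0491). Under TMM 18.8% of all genes tested had a lower fold change than Mief1, against 0.733% to 6.14% for the other 9 genes.

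Of the cristae genes, Immt, the mitofilin subunit around which MICOS is built, had 18.5 to 36.4 CPM in mitochondria libraries with a median of 31.6, against 187 to 220 CPM in muscle libraries with a median of 209. Its log2 fold change was -4.93 ± 0.13 with TMM (SE, edgeR adjusted p = 7.95e-25) and -2.83 ± 0.18 with total counts (edgeR adjusted p = 1.25e-24). Chchd3, a MICOS subunit on the side of the intermembrane space, had 17.0 to 32.7 CPM in mitochondria with a median of 23.1, against 266 to 319 CPM in muscle with a median of 289. Its log2 fold change was -5.76 ± 0.13 with TMM (SE, edgeR adjusted p = 5.80e-26), -3.66 ± 0.19 with total counts (edgeR adjusted p = 7.56e-30) and -3.28 ± 0.54 with mitochondrial genome counts (edgeR adjusted p = 2.92e-09), the strongest fall of the 10 genes under each of these scalings.

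**Figure D2:**
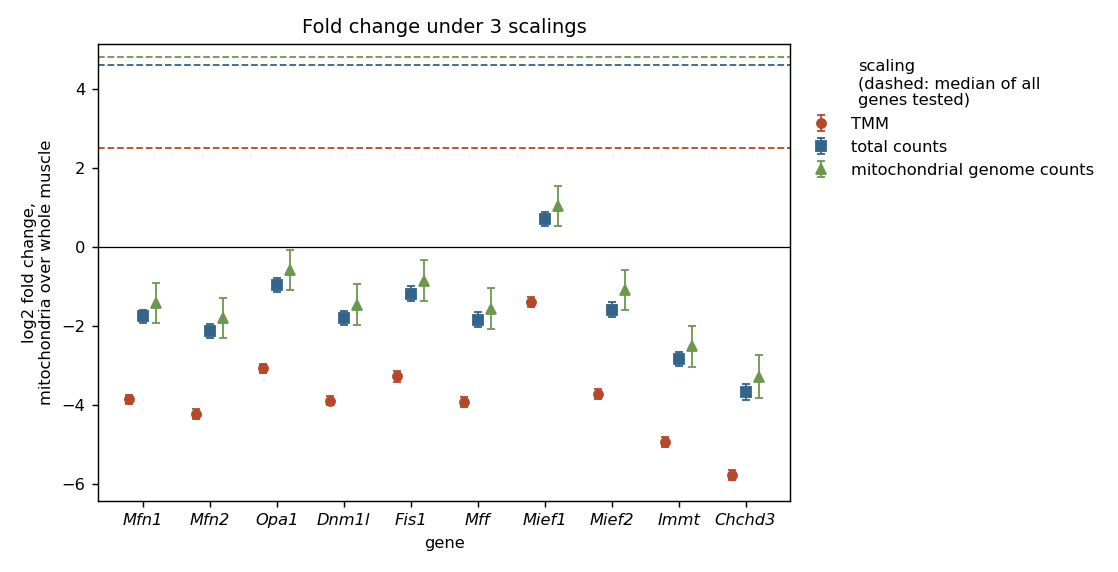
Log2 fold change, mitochondria over whole muscle, of the 10 genes with its SE under TMM, total count and mitochondrial genome count scaling; dashed lines are the medians of all genes tested, at 2.51, 4.61 and 4.81. Chchd3 is lowest and Mief1 highest under each scaling, and Mief1 changes sign.

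The spread between mitochondria libraries depended on the denominator. The sum of the 10 genes had a coefficient of variation of 20.9% in mitochondria and 2.69% in muscle when scaled by total counts. Scaled by nuclear counts alone, which leaves out the variable share of the mitochondrial genome, it was 5.29% in mitochondria and 7.50% in muscle, and the sums were 467 to 530 in mitochondria against 1705 to 2007 in muscle, as nuclear CPM. Each gene rested on 14 to 85 counts in a mitochondria library and 499 to 9231 in a muscle library. Around the nuclear totals, the variance of the counts divided by their mean, which is 1 where counting error alone acts, was 0.236 (Mfn1) to 1.67 (Mief2) in mitochondria and 7.68 (Mief1) to 117 (Chchd3) in muscle. At this depth, differences between animals beyond counting error were therefore not detectable for single genes in mitochondria.

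Shares among the 10 genes need no scaling between libraries. These are shares of counts, not corrected for transcript length, so each gene is compared with itself. In mitochondria, Chchd3, Mff, Dnm1l and Fis1 had means of 23.7, 22.2, 21.8 and 19.9 CPM. By CPM, which is not corrected for transcript length, these lay near the 95th percentile of 23.6 for nuclear genes without a muscle count. The other members lay above it, and whether they would after a correction for length was not tested. How far such a level enters the shares and ratios was not tested. The fusion genes held 44.0% ± 2.31 of the counts of the 10 genes in mitochondria and 36.6% ± 2.17 in muscle, the fission genes 40.0% ± 2.76 and 24.5% ± 0.598, and the cristae genes 16.0% ± 1.39 and 38.9% ± 2.16 (SD, n = 6 each). Chchd3 held 7.13% ± 0.762 in mitochondria and 22.8% ± 1.88 in muscle, and Immt 8.88% ± 1.13 and 16.1% ± 0.746. Mief1 held 10.9% ± 1.63 in mitochondria and 1.71% ± 0.104 in muscle, and Opa1 13.7% ± 1.10 and 6.80% ± 0.493. The groups did not overlap for Mfn1, Opa1, Fis1, Mief1, Immt and Chchd3, and did for Mfn2, Dnm1l, Mff and Mief2. Separation of the groups was common: in CPM, 6.77% of all genes tested lay wholly below muscle and 79.5% wholly above. No such rate was taken for shares. The mean shares ran from 5.97% (Fis1) to 16.9% (Mfn2) in mitochondria and from 1.71% (Mief1) to 22.8% (Chchd3) in muscle.

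**Figure D3:**
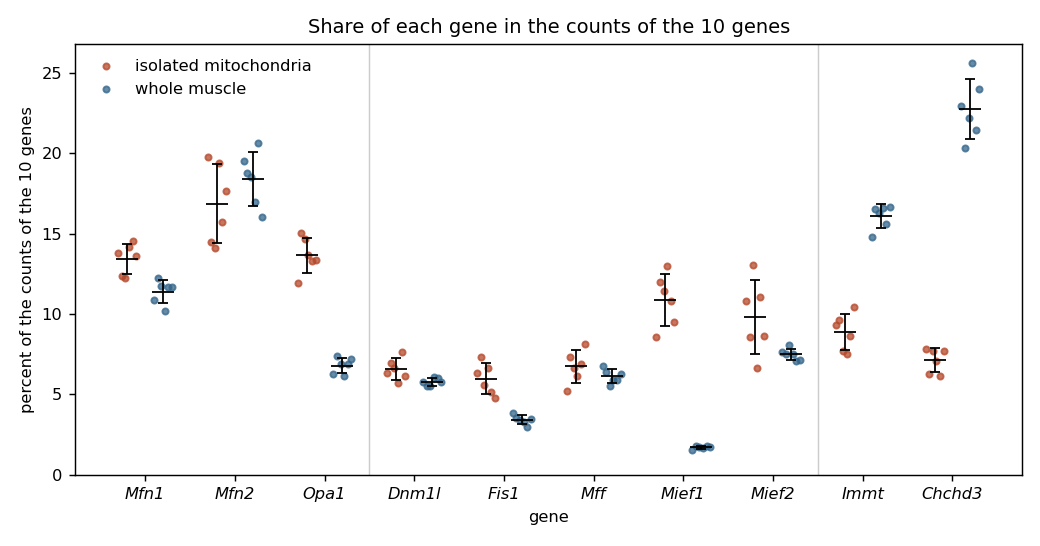
Percent of the summed counts of the 10 genes that each gene held in each of the 6 mitochondria and 6 muscle libraries; points are libraries, and bars are mean and SD. Immt and Chchd3 hold less in mitochondria, and Mfn1, Opa1, Fis1 and Mief1 more, without overlap between the groups.

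Ratios between 2 genes within a library likewise do not depend on scaling, and 5 of them were compared between groups. In CPM, 6.77% of all genes tested lay wholly below muscle and 79.5% wholly above. For ratios of other gene pairs no rate of separation was taken, so how common such p-values are was not tested. Two-sided exact permutation tests ran over all groupings of the 12 libraries into 6 and 6, with Benjamini-Hochberg adjustment over the 5. Mief2 had 0.887 counts per Mief1 count in mitochondria and 4.39 in muscle (geometric means), a log2 difference of -2.31. The log2 ratio was -0.17 ± 0.48 in mitochondria and 2.13 ± 0.13 in muscle (SD, n = 6 each, exact permutation p = 0.0021645, the smallest possible, adjusted p = 0.00361), and it was lower in mitochondria in 6 of 6 animals. Chchd3 over Immt was -0.31 ± 0.24 in mitochondria and 0.50 ± 0.13 in muscle on the log2 scale (n = 6 each, exact permutation p = 0.0021645, adjusted p = 0.00361). It was lower in 6 of 6 animals.

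Opa1 over Mfn2 had a log2 ratio of -0.29 ± 0.31 in mitochondria and -1.43 ± 0.18 in muscle (SD, n = 6 each, exact permutation p = 0.0021645, adjusted p = 0.00361). It was higher in mitochondria in 6 of 6 animals, a 2.21-fold difference. Mfn2 over Mfn1 was 0.31 ± 0.16 in mitochondria and 0.69 ± 0.14 in muscle (n = 6 each, exact permutation p = 0.00433, adjusted p = 0.00541). This ratio was lower in mitochondria in 6 of 6 animals, but the groups overlapped. After thinning of all libraries to 720111 counts the Mfn2 to Mfn1 difference no longer passed (-0.33, exact permutation p = 0.0628). Dnm1l over Mfn2, the fission against the fusion GTPase, was -1.34 ± 0.32 in mitochondria and -1.67 ± 0.15 in muscle, and the difference of 0.33 did not pass (n = 6 each, exact permutation p = 0.0628). The difference was above 0 in 4 of 6 animals, and passed without mitochondria replicate 4 (0.41, exact permutation p = 0.0216).

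**Figure D4:**
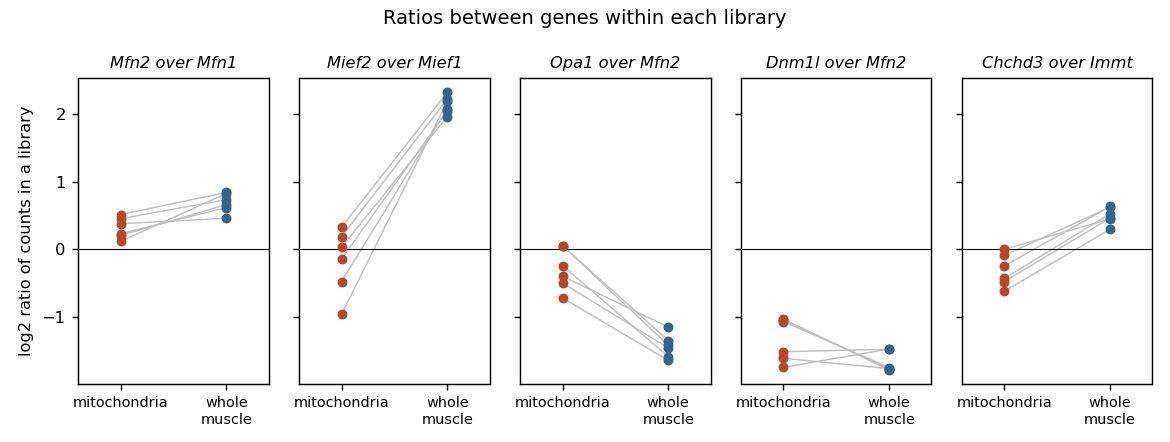
Log2 ratio of the counts of 2 genes in each mitochondria and muscle library, with grey lines joining the libraries of an animal. The groups are apart for Mief2 over Mief1, Opa1 over Mfn2 and Chchd3 over Immt, and overlap for Mfn2 over Mfn1 and Dnm1l over Mfn2. No rate of separation was taken for other gene pairs.

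Other genes of the same pathways were followed in 8 lists, which held 58 symbols, of which 52 were found. They stand in 53 rows of the table, and 52 rows passed the filter on low counts. With TMM, 46 fell, 4 rose and 2 did not pass, against 30.3% of all genes called lower and 63% called higher. With total counts 28 fell and 18 rose, against 9.03% and 84.3%, and the median log2 fold change of the 52 rows was -2.56 with TMM and -0.47 with total counts. With mitochondrial genome counts 17 fell and 16 rose, against 4.4% of all genes called lower and 80.7% called higher. The calls in each list below are to be read against these shares of all genes.

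All 8 genes that process or stabilise OPA1 fell with TMM, whereas 5 fell and 2 rose with total counts, and 1 fell and 2 rose with mitochondrial genome counts. The prohibitin gene Phb (Phb1), a scaffold of the inner membrane, had 25.7 ± 3.34 CPM in mitochondria and 77.6 ± 1.81 in muscle (log2 fold change -3.68 ± 0.12, edgeR adjusted p = 9.17e-23). Oma1, the stress-activated protease that cuts OPA1, had 20.5 ± 5.30 CPM in mitochondria and 9.65 ± 1.15 in muscle, and its log2 fold change was -1.05 with TMM but 1.05 with total counts (edgeR adjusted p = 5.94e-08 and 6.63e-06). Of the other MICOS subunits and the proteins that bridge MICOS to the outer membrane, all 9 that were tested fell with TMM. With total counts 5 fell and 3 rose, and with mitochondrial genome counts 5 fell and 2 rose. Micos13 had 18.0 ± 6.41 CPM in mitochondria and 86.3 ± 11.01 in muscle (-4.41 ± 0.15, edgeR adjusted p = 4.07e-22), and Samm50, of the outer membrane sorting machinery, 39.6 ± 15.2 and 120 ± 14.3 (-3.79 ± 0.14, edgeR adjusted p = 2.40e-21). Mtx1, a metaxin, had 16.2 ± 5.55 CPM in mitochondria and 6.40 ± 0.488 in muscle, at -0.81 with TMM and 1.29 with total counts.

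Among 10 further fission factors, 8 fell, Gdap1 rose and Spire1 did not pass with TMM. With total counts 4 fell and 5 rose, at a list median of 0.38 on the log2 scale, and with mitochondrial genome counts 2 fell and 5 rose. Spire1, which nucleates actin, had 46.7 ± 13.0 CPM in mitochondria and 9.27 ± 0.764 in muscle (log2 fold change 0.19 ± 0.12 with TMM, edgeR adjusted p = 0.142), and rose with total counts (2.31 ± 0.19, edgeR adjusted p = 9.52e-20). Sh3glb1, an endophilin, fell to 16.9 ± 3.89 CPM in mitochondria, against 167 ± 7.39 in muscle (-5.38 ± 0.14, edgeR adjusted p = 6.45e-25). Gdap1, known from an inherited neuropathy, had 25.3 ± 7.44 CPM in mitochondria and 3.46 ± 0.576 in muscle (0.75 ± 0.18, edgeR adjusted p = 0.000313). Among 5 fusion factors, 3 fell with TMM, and Pld6, the mitochondrial phospholipase D, and Miga1, mitoguardin, rose. With total counts 2 fell and 2 rose, at a list median of 0.22, and with mitochondrial genome counts 1 fell and 2 rose. Pld6 had 14.4 ± 4.10 CPM in mitochondria and 0.409 ± 0.215 in muscle (2.94 ± 0.30, edgeR adjusted p = 1.56e-10), a rise above the median of all genes, and Miga1 38.5 ± 9.65 and 4.10 ± 0.658 (1.13 ± 0.16, edgeR adjusted p = 1.04e-07). Mtch2, an outer membrane insertase, had 27.2 ± 5.22 CPM in mitochondria and 89.6 ± 8.90 in muscle (-3.83 ± 0.13, edgeR adjusted p = 2.75e-22).

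Of 4 genes of ubiquitin control, 3 fell and the deubiquitinase gene Usp30 rose, both with TMM and with total counts. Scaled by mitochondrial genome counts, 2 fell and Usp30 rose. Usp30 had 42.6 ± 9.45 CPM in mitochondria and 5.79 ± 0.755 in muscle (0.75 ± 0.13, edgeR adjusted p = 5.40e-06). The ligase genes Huwe1 (68.8 ± 15.3 CPM in mitochondria, 206 ± 12.8 in muscle) and Marchf5 (11.9 ± 5.41 and 34.4 ± 2.67) fell, with log2 fold changes of -3.72 ± 0.11 and -3.73 ± 0.16 (adjusted p in edgeR 1.80e-23 and 8.20e-20). All 4 transport genes fell with TMM, with total counts 3 fell and 1 rose, and with mitochondrial genome counts 1 fell and 1 rose. Those that fell with TMM included the adaptor gene Trak1 (107 ± 22.4 CPM in mitochondria, 238 ± 24.4 in muscle, -3.29 ± 0.11) and the kinesin gene Kif5b (36.2 ± 6.16 and 112 ± 11.6, -3.74 ± 0.12; edgeR adjusted p = 5.96e-22 and 2.64e-22). Rhot2, a GTPase that anchors motors to mitochondria, was at -1.22 with TMM and 0.88 with total counts (edgeR adjusted p = 2.16e-10 and 1.21e-05), with 32.4 ± 8.50 CPM in mitochondria and 17.2 ± 1.58 in muscle.

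Of 6 genes of cardiolipin synthesis, the lipid of the inner membrane, 5 fell and Tamm41 did not pass with TMM. With total counts 1 fell and 3 rose, and with mitochondrial genome counts 0 fell and 3 rose. Tafazzin (Taz) had 19.8 ± 8.87 CPM in mitochondria and 24.2 ± 2.24 in muscle, Ptpmt1 15.7 ± 6.85 and 20.3 ± 1.92, and Tamm41 20.8 ± 4.99 and 4.64 ± 0.694. Their log2 fold changes with TMM were -2.41 ± 0.15, -2.53 ± 0.15 and 0.05 ± 0.16 (edgeR adjusted p = 8.41e-16, 5.16e-16 and 0.784). With total counts Tafazzin did not pass (-0.32 ± 0.20, edgeR adjusted p = 0.126), Ptpmt1 was at -0.44 ± 0.21 (edgeR adjusted p = 0.0473), and Tamm41 rose (2.14 ± 0.23, edgeR adjusted p = 8.54e-14). Of the ATP synthase subunits and regulators that help dimers bend the cristae, all 6 rows fell with TMM. With total counts 5 fell and 1 rose, and with mitochondrial genome counts 5 fell and 1 did not pass. Atp5mk stands in 2 rows: ENSRNOG00000020296 had 6.57 ± 3.27 CPM in mitochondria and 271 ± 40.1 in muscle (-7.41 ± 0.19, edgeR adjusted p = 5.07e-25), and ENSRNOG00000042869 1.79 ± 0.737 and 0.807 ± 0.277 (-1.01 ± 0.41, edgeR adjusted p = 0.0209; 1.04 with total counts). Counts may be split between such copies, so both values are uncertain.

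**Figure D5:**
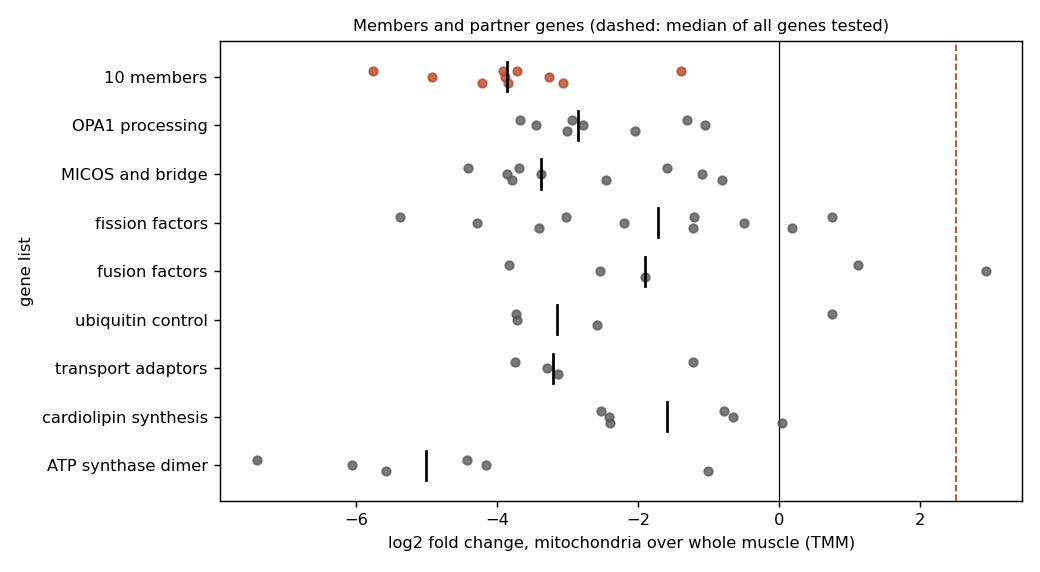
Log2 fold change with TMM, mitochondria over whole muscle, of the 10 genes and of the 52 tested rows in 8 lists; points are genes, black bars list medians, and the dashed line the median of all genes tested at 2.51. The ATP synthase list has the lowest median, and Pld6 is the only point right of the dashed line.

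The named nuclear genes whose log2 CPM lay nearest to the median profile of the 10 genes over the 12 libraries were Cap2, E2f6, Rpl8 (ENSRNOG00000068956), Aldh1a1 and Calu, with root mean square differences of 0.13, 0.16, 0.16, 0.18 and 0.19 on the log2 scale. Cap2, the nearest, had 29.5 ± 8.22 CPM in mitochondria and 88.4 ± 8.21 in muscle (SD, n = 6 each). Among the 10 genes themselves this difference to the median profile ran from 0.18 for Mief2 to 1.49 for Mief1.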

How the data were processed

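RNA sequencing counts of 6 mitochondria and 6 whole muscle libraries were analysed. The deposited table holds raw counts for each gene. Tools listed in the submitters' processing notes are HTSeq, STAR 2.7.11a, cutadapt 4.6 and FastQC 0.74, with the build mRatBN7.2. Strand setting, annotation release and treatment of multiply mapped reads were not stated, so reads of overlapping or antisense genes cannot be separated. Groups came from the titles. The animal number pairs the libraries; deviations from the group means of paired libraries correlated at -0.0103 to 0.0202 over all tested genes. The labels give no batch.

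Tests used edgeR 4.0.16 in R 4.3.3 (glmQLFit, glmQLFTest) with group only, TMM and filterByExpr with a minimum count of 10. Benjamini-Hochberg adjustment ran over all genes, at a threshold of 0.05. The fit was also run on simulated counts in which few genes changed, as many up as down. Those counts lack the broad shift between these groups, so they do not check the scaling. The SE of a log2 fold change is its size over the root of the F statistic. Ratios used log2 of counts plus 0.5 and exact permutation tests. Alternatives included DESeq2 1.42.0, other scalings, no filter, a replicate block, thinning and leaving out each library. Members and lists were chosen with earlier results of these data known. Named genes are the 10 members, in each list the gene most abundant in muscle and those with the most positive and most negative fold change, and the 5 genes nearest to the members; Miga1 and Spire1 were named after their values were seen. No sequences are shown.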

Additional observations from a re-analysis of the deposited data

How the results depend on the processing

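All 10 genes were also lower where RLE factors (26.6% of all genes called lower) or DESeq2 (21.8%) took the place of TMM. With TMM kept, all 10 stayed lower with no filter (25.7%), the replicate block (30.1%), a fold of at least 2 (21%) and each library left out. Thinned to the smallest library 9 were lower (29.4%), with Mief1 at -0.06 (edgeR adjusted p = 0.807). With total counts, nuclear counts or mitochondrial genome counts as library size 1 member was higher, Mief1, at 0.70, 0.76 and 1.04. Under the same 3 scalings 28, 28 and 17 partner genes were lower and 18, 19 and 16 higher, against 9.03%, 9.29% and 4.4% of all genes lower and 84.3%, 85.6% and 80.7% higher. With DESeq2 7 were higher (68.7% of all genes) and at a fold of at least 2 1 was (56.7%). These scalings also turned Oma1 (1.05, 1.10 and 1.36), Mtx1 (1.29, 1.34 and 1.64), Rhot2 (0.88, 0.93 and 1.22, and 0.0972 when thinned) and the copy ENSRNOG00000042869 of Atp5mk (1.04, 1.12 and 1.09), and Tafazzin was at 0.0584 relative to mitochondrial genome counts. Tamm41 was at -0.0147 without a filter and between -0.0827 and 0.23 with single libraries left out. Scaling sets a common shift of all genes by construction; other causes were not tested.

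The replicate block kept 10 members and 45 partner genes lower; only that Atp5mk copy lost its call (-0.95, edgeR adjusted p = 0.0713). The paired sign-flip test of the ratios changed no call. Mfn2 over Mfn1 was -0.33 when thinned and between -0.42 and -0.33 with a library left out. Dnm1l over Mfn2 was 0.46 with a pseudocount of 5 (exact permutation p = 0.0108), 0.18 when thinned (exact permutation p = 0.394) and between 0.27 and 0.41 with a library left out. The counts of 14 to 85 per gene limit what the mitochondria libraries can show.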

Other observations

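Chchd6, the homologue of Chchd3 in the MICOS complex, was picked out after its values were seen. It had no count among 170841891 counts of whole muscle and 35 counts in mitochondria, in 5 of the 6 libraries. Its row did not pass the filter on low counts and was not tested. Set against a group floor of 3 muscle counts, Chchd6 was at least 254-fold higher in mitochondria by CPM. It had 4.46 CPM over the pooled mitochondria libraries, close to the median of 3.73 CPM for nuclear genes without a muscle count. Of those 10014 genes, 93.4% had a count in mitochondria. Chchd3 went the other way, at 23.7 ± 6.28 CPM in mitochondria and 291 ± 21.2 CPM in muscle (SD, n = 6 each). The cause was not tested.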
